A study of Mus musculus with 8 samples.

Results

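The septin family was followed through 9 genes, Septin2, Septin4, Septin5, Septin6, Septin7, Septin8, Septin9, Septin10 and Septin11, which were found by symbol among the 42391 gene entries of the raw count table, leaving out entries with a copy suffix. Poly(A) RNA had been sequenced from 8 samples in 4 groups with 2 replicates each. C2C12, an immortalized mouse myoblast line, and pMb, primary myoblasts grown out of minced hindlimb muscle of young mice, had each received either a non-targeting control siRNA or a single Septin9 siRNA. C2C12 cells were collected 60 h after siRNA, of which the last 12 h were in differentiation medium, and had been transfected at 50 nM, with 100 nM during the initial incubation. pMb were collected 48 h after siRNA while still in proliferation medium, after a plating step meant to remove fibroblasts. Transfection began in reduced-serum medium for C2C12 but took place in proliferation medium for pMb, and the siRNA concentration was stated for C2C12 only. Cell type, medium, transfection and time after siRNA therefore cannot be told apart in any contrast between C2C12 and pMb. With a single siRNA, an effect through Septin9 and an effect of the siRNA on other transcripts cannot be told apart either.

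Septins are GTP-binding proteins that join into rod-shaped complexes, which in turn line up end to end into filaments on membranes, actin and microtubules. The mammalian genes fall into 4 homology groups named after SEPT2, SEPT6, SEPT7 and SEPT9, and a rod takes a member of each group at a set position, so that members of a group can occupy the same place. Septin9 takes the position of the SEPT9 group, and rods can also form without it. In the genes followed here, the SEPT2 group held Septin2, Septin4 and Septin5, the SEPT6 group held Septin6, Septin8, Septin10 and Septin11, and Septin7 and Septin9 each stood alone in their group.

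The 8 libraries held between 20898611 and 27223414 counts in genes. Myod1 and Des, which mark muscle cells, were detected in all of them, and levels are given as CPM, the count of a gene scaled to the size of its library. Of the 3 leukocyte genes, Ptprc and Adgre1 had at most 0.04 CPM and Cd68 between 0.910 and 2.1 CPM. The 3 endothelial genes (Pecam1, Cdh5 and Kdr) summed to between 0.0369 and 0.234 CPM in C2C12 and to between 1.89 and 4.12 CPM in pMb. The 10 genes of differentiated muscle summed to between 35.4 and 163 CPM in C2C12 but to between 3704 and 16093 CPM in pMb, although pMb were the cells kept in proliferation medium. Replicates of pMb also differed in fibroblast genes and in the endothelial gene Cdh5, which was higher in replicate 2 by 2.33 on the log2 scale (adjusted p = 0.000503 by edgeR). Pdgfra was at 1.01 and 0.88 CPM in the control and Septin9 siRNA samples of replicate 1, and at 32.2 CPM in both samples of replicate 2. The remaining septins gave little to measure. Septin3 had between 3 and 57 counts per sample, Septin12 at most 2 and Septin14 at most 1. Septin1 was left aside because its gene overlaps that of Mylpf, a myosin light chain of fast muscle, by 1580 bases on chromosome 7. Its counts in pMb, for example 46091 in a control where Mylpf had 46040, were nearly the same as those of that gene. The C2C12 controls had 104 and 313 counts of Septin1 and 72 and 288 of Mylpf.

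In control cells, 3 septins carried most of the septin RNA per exon length. Levels between genes are given as RPKM, which is CPM per kilobase of summed exons, on the scale of the trimmed mean of M values (TMM). Septin9 stood at 54.6 and 57.7 RPKM in the C2C12 controls and at 48.6 and 63.4 RPKM in the pMb controls. Septin2, the member after which its group is named, stood at 51.2 and 60.4 RPKM in C2C12 and at 49.6 and 49.9 RPKM in pMb. Septin11, the most abundant member of the SEPT6 group, stood at 38.4 and 41.3 RPKM in C2C12 and at 53.6 and 53.8 RPKM in pMb. Per summed exon length these 3 genes thus headed the order of levels in both cell types, and Septin9 overlapped its nearest neighbor in each, Septin2 in C2C12 and Septin11 in pMb. In pMb the values of Septin9 also overlapped those of Septin2.

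Below them the order differed between the cells. In C2C12, Septin10 (27.6 ± 1.14 RPKM, SD, n = 2), Septin7 (26.4 ± 0.984), Septin8 (26.1 ± 1.37) and Septin5 (25.7 ± 1.13) overlapped from each to the next, so that their order was not resolved. In pMb the same 4 genes were apart, with Septin7 at 29.5 ± 3.43 RPKM, Septin10 at 16.5 ± 1.60, Septin5 at 8.86 ± 1.11 and Septin8 at 6.75 ± 1.5. Septin6 followed at 3.62 ± 0.287 RPKM in C2C12 and 1.85 ± 0.0915 in pMb, and Septin4 came last. The order depends on the length that is used. Per length of the longest transcript, Septin2 led in both cell types, with Septin9 behind it in C2C12 and Septin11 and then Septin9 behind it in pMb, and Septin7 moved up in C2C12 to 67.2, apart from Septin8, Septin10 and Septin5 below it. Per coding length, Septin9 was the third in C2C12 and overlapped Septin7, and in pMb it came behind Septin11, Septin2 and Septin7 and overlapped the last of these. The summed exons of Septin7 span 11631 bases and its longest transcript 4569.

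**Figure D1:**
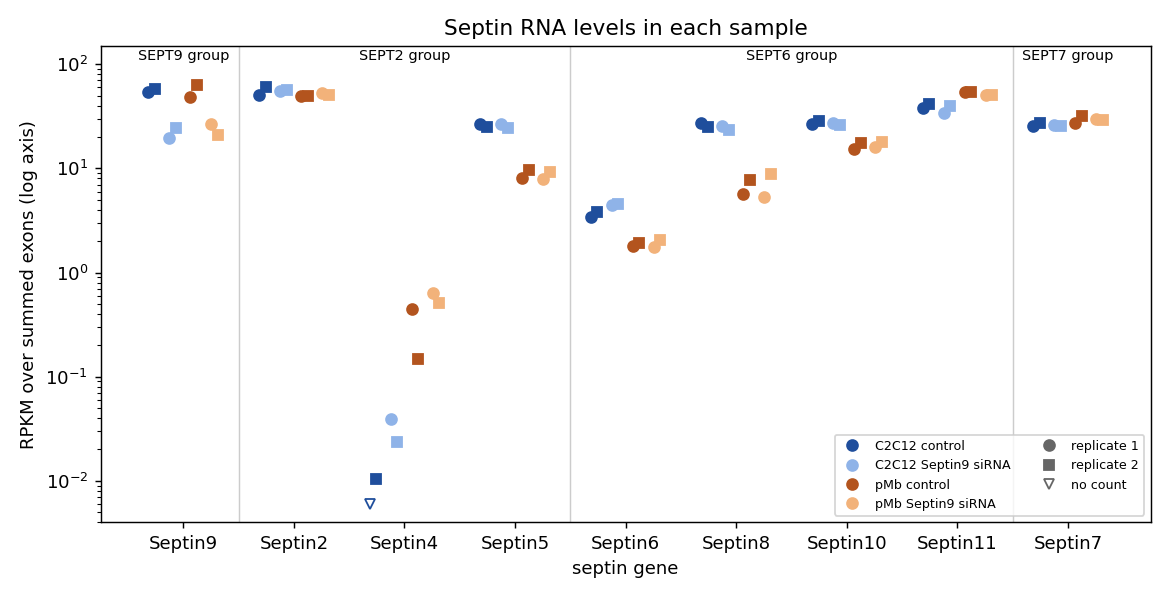
RNA level of each septin in RPKM over summed exons (vertical log axis) in each of the 8 samples, with color for the group, circles for replicate 1 and squares for replicate 2. For Septin9 the siRNA samples sit well below the controls, while Septin5, Septin6, Septin8 and Septin10 sit lower in pMb than in C2C12 and Septin4 is near 0 in C2C12 (an open triangle marks a sample with no count).

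By homology group, the SEPT6 group made up the largest share of septin RPKM over summed exons in the controls, 37.2 ± 0.720% in C2C12 and 35.3 ± 1.42% in pMb. The SEPT2 group followed with 31.2 ± 0.785% and 26.5 ± 1.67%, the SEPT9 group with 21.5 ± 0.0252% and 25.0 ± 2.64%, and the SEPT7 group with 10.1 ± 0.0398% and 13.2 ± 0.453% (SD, n = 2 each). Per coding length this order was not kept. The SEPT2 group (34.0 ± 1.24%) then overlapped the SEPT6 group (33.5 ± 0.790%) in C2C12, and the SEPT7 group (18.3% and 19.7%) overlapped the SEPT9 group (16.1% and 19.1%) in pMb. Exact permutation of 2 against 2 samples cannot give a p below 0.333, so shares are described without a test. The summed level of the 9 genes was 261 ± 10.8 RPKM in C2C12 controls and 223 ± 18.4 RPKM in pMb controls.

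The comparison of the 2 control groups showed where the family differed between the cells. In it all 10 genes of differentiated muscle and the endothelial genes Pecam1 and Kdr were higher in pMb by edgeR, and their part in the septin differences was not tested. Of the 9 septins, 5 passed an adjusted p of 0.05 in edgeR's quasi-likelihood test, while 34.5% of the 17103 genes tested did so in that contrast, and 4 of the 5 were higher in C2C12. Less RNA of a gene per cell and fewer cells that express it cannot be told apart in such bulk samples. Septin8, a SEPT6 group member, had 165 and 153 CPM in C2C12 and 34.6 and 47.5 CPM in pMb, a level 3.82-fold higher in C2C12 (95% confidence interval 2.73 to 5.35, adjusted p = 0.00564). Septin5, a SEPT2 group member best known from neurons and platelets, had 104 and 97.5 CPM in C2C12 and 31.6 and 37.8 CPM in pMb, 2.86-fold higher in C2C12 (2.20 to 3.72, adjusted p = 0.00561). For both genes the 4 samples formed separate groups, with a gap wider than either group. Septin5 shares 1902 exon bases on the same strand with Gp1bb, a platelet glycoprotein gene, so reads of the shared stretch can belong to either, although Gp1bb itself had far fewer counts, between 161 and 727 per sample.

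Septin6 and Septin10 were also higher in C2C12. Septin6, on the X chromosome (chrX:36911326-36991794, minus strand, GRCm38), had 33.8 and 37.8 CPM in C2C12 and 17.6 and 18.9 CPM in pMb, 1.93-fold (1.46 to 2.55, adjusted p = 0.0142). Septin10 had 83.3 and 88.3 CPM in C2C12 and 47.6 and 54.7 CPM in pMb, 1.65-fold (1.29 to 2.11, adjusted p = 0.0193). In all, 3 of the 4 SEPT6 group members differed in the same direction. The remaining member, Septin11, pointed the other way at 364 and 391 CPM against 508 and 509 CPM, a log2 difference of 0.45 that missed the threshold (adjusted p = 0.0652), and DESeq2 called it (adjusted p = 0.0211). Septin2, Septin7 and Septin9 had log2 differences of -0.14, 0.18 and 0.015 (pMb minus C2C12), with adjusted p of 0.517, 0.389 and 0.951. For Septin9 the 95% interval of the difference ran from 0.739-fold to 1.38-fold. When single controls were left out, between 0 and 5 of the 9 septins were called, with 0 called without replicate 2 of the C2C12 control.

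Septin4 was the septin higher in pMb. It belongs to the SEPT2 group and is known from sperm and brain. It had 0 and 1 counts in the C2C12 controls and 38 and 14 counts in the pMb controls. The ratio of these sums, scaled for depth, was 50.5 with an exact 95% counting interval of 8.67 to 2033, which covers counting error only, and edgeR gave a log2 difference of 5.42 with an adjusted p of 0.0250. Over 10 alternatives the log2 difference ran from 4.38 to 7.69 and 7 of them called it. The call was lost without either C2C12 control (adjusted p = 0.120 in both) and without replicate 1 of the pMb control (0.0689). The 2 pMb controls themselves stood apart, at 1.60 and 0.528 CPM. The Septin4 copy entry of the table had nearly the same counts, 35 and 14, since reads were counted in both.

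Promoter windows of the RefSeq annotation (GRCm38.p6) were read for the septins to show the letters upstream of Septin4, the member that set the cell types apart most, beside those of Septin11, an abundant member whose window holds the same motif. Windows for 7 of the 9 genes were present, 16 in all. The 250 bases before each start were searched for CAGCTG, which reads the same on both strands and is a form of the E-box (CANNTG) that MyoD and its relatives can bind. It occurred in 2 of the 16 septin windows and in 13.0% of all 32851 windows of that length, while CANNTG occurred in 66.2% of them. In Septin4 it lies in the window chr11:87580811-87581060 on the plus strand, beginning 126 bases before the start, and in Septin11 in chr5:93093166-93093415 on the plus strand, beginning 131 bases before the start. Capitals mark CAGCTG.
Septin4: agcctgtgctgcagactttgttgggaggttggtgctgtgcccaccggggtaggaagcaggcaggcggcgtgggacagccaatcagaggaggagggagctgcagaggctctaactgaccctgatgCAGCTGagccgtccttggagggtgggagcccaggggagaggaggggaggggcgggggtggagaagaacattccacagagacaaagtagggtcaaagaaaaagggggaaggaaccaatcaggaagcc
Septin11: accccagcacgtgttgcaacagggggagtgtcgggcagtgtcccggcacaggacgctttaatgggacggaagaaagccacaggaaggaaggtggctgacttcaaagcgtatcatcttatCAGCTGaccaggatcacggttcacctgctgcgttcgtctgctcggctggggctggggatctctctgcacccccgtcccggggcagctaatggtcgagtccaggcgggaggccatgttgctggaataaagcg
The other 3 windows of Septin4 did not hold these letters. Gene counts do not show which start was used, and a match is not evidence of binding.

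Septin9 itself fell in every replicate pair. In C2C12 it went from 413 CPM in the control to 147 CPM after Septin9 siRNA in replicate 1 and from 437 to 186 CPM in replicate 2, which left 35.7% and 42.6% of the control level. In pMb it went from 368 to 204 CPM in replicate 1 and from 480 to 159 CPM in replicate 2, which left 55.4% and 33.3%. The siRNA samples lay below both controls in each cell type, and the depth of the knockdown varied more between the pMb replicates than between those of C2C12. The log2 fold change was -1.36 ± 0.08 (SE) in C2C12, with an adjusted p of 5.11e-09 by edgeR, the smallest of the 15814 genes tested. In pMb it was -1.21 ± 0.15, with an adjusted p of 0.000134. Without the replicate block the estimates were -1.35 and -1.21 and the adjusted p was 1.00 in both cell types, with unadjusted p of 0.000413 and 0.00348, and edgeR then called 0 genes of all tested in either, with 372 and 378 at an unadjusted p under 0.05. All counts over the gene (chr11:117199661-117362325, plus strand, GRCm38) entered, so the several Septin9 isoforms are not separated.

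The sum of the other septins stayed near its control level while Septin9 fell. After Septin9 siRNA the 8 other septins summed to 100.1% and 94.9% of their control level in the 2 C2C12 pairs, and to 102% and 97.6% in the 2 pMb pairs. In C2C12, Septin9 fell by 35.1 RPKM in replicate 1 and fell by 33.1 RPKM in replicate 2, while the sum of the other 8 changed by 0.297 and -10.8 RPKM. In pMb, Septin9 fell by 21.7 RPKM in replicate 1 and fell by 42.3 RPKM in replicate 2, while the sum of the other 8 changed by 3.62 and -4.18 RPKM. In no pair did the others gain as much RNA per length as Septin9 lost, and in the second pair of each cell type their sum was below the control. All 9 septins together stood at 86.3% and 83.7% of control in C2C12 and at 91.4% and 80.3% in pMb.

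**Figure D2:**
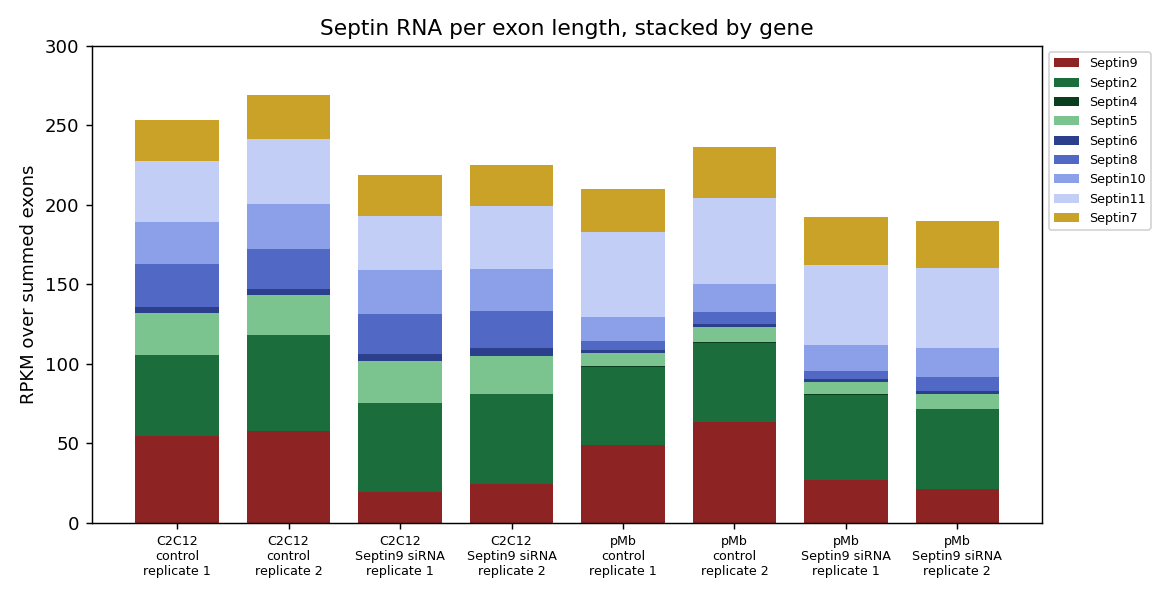
RPKM over summed exons of the 9 septins (vertical axis, from 0), stacked by gene, for each of the 8 samples (1 bar per sample). In each pair the bar is lower after Septin9 siRNA, mostly through the Septin9 segment. The other segments together changed by 0.297 and -10.8 RPKM in the C2C12 pairs and by 3.62 and -4.18 RPKM in the pMb pairs.

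The share of Septin9 in septin RPKM was 21.5% in both C2C12 controls and 8.89% and 10.9% after Septin9 siRNA. In pMb it was 23.1% and 26.8% in the controls and 14.0% and 11.1% after Septin9 siRNA. The groups did not overlap in either cell type. The shares of the SEPT2, SEPT6 and SEPT7 groups became 36.7 ± 1.27%, 41.7 ± 0.129% and 11.7 ± 0.306% in C2C12 and 31.8 ± 0.389%, 40.1 ± 2.41% and 15.5 ± 0.0208% in pMb (SD, n = 2). The sum of these shares must grow when the share of Septin9 shrinks.

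Gene by gene, a single septin other than Septin9 passed the test in C2C12 and none in pMb. In C2C12, 1 of the 7 other septins tested was called, beside 6.75% of all 15814 genes, and 0 passed when a change of at least 1.5-fold was also asked for, which 1.57% of all genes did. In pMb, 0 of 8 were called, beside 4.99% of all 17117 genes, or 3.17% with the fold threshold. At an unadjusted p under 0.05 in edgeR, 1 of the 8 passed in pMb, beside 2864 of all 17117 genes. DESeq2 on the raw counts called 0 of the others in either cell type. On the batch-corrected values that were also deposited, DESeq2 called 1 of them in C2C12 (Septin6) and 0 in pMb. The median log2 fold change of the other septins was -0.03 in C2C12 and 0.05 in pMb, against -0.00079 and 0.01 over all genes tested. Control and siRNA samples did not overlap for 1 of the 7 in C2C12 and for 3 of the 8 in pMb (Septin2, Septin4 and Septin11), which 25.5% and 27.8% of all genes also showed.

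**Figure D3:**
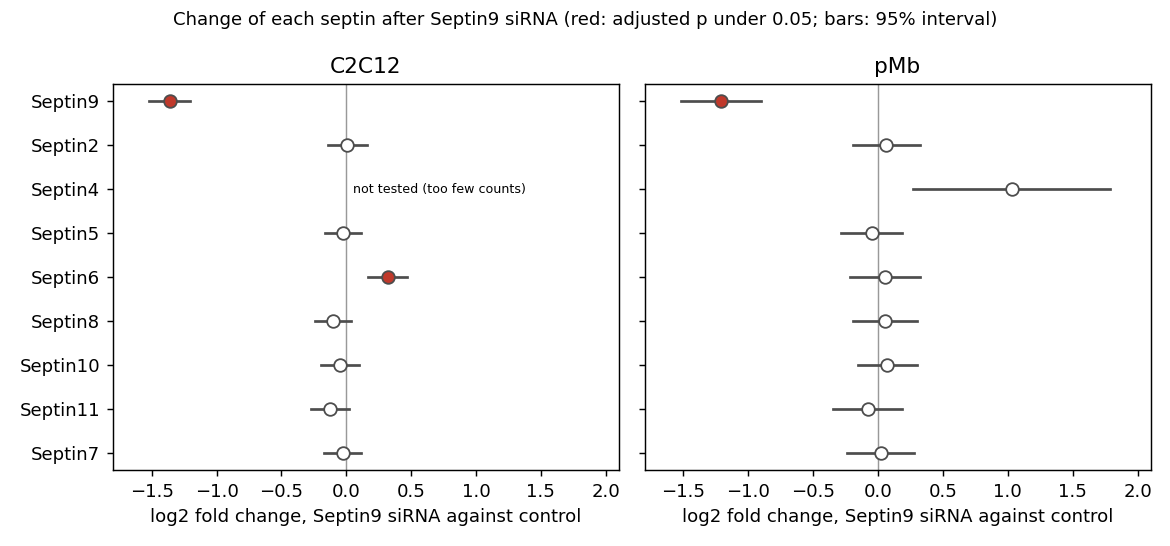
Log2 fold change of each septin (rows) after Septin9 siRNA against control (horizontal axis) in C2C12 (left) and pMb (right), with points for the edgeR estimate, bars for its 95% confidence interval and red for an adjusted p under 0.05. Septin9 lies far to the left in both, Septin6 is the other red point in C2C12 at 0.32, and Septin4 has the widest interval in pMb, 0.27 to 1.79.

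The called paralog was Septin6, a SEPT6 group member expressed at a low level. It had 33.8 and 37.8 CPM in the C2C12 controls and 44.4 and 45.0 CPM after Septin9 siRNA, with both siRNA samples above both controls. The log2 fold change was 0.32 ± 0.07 (SE), a 1.25-fold level (95% interval 1.12 to 1.39, adjusted p = 0.0113 by edgeR). On the RPKM scale the gain was 1.08 and 0.724 in the 2 pairs, a small fraction of what Septin9 lost. The call depends on the fit, and 5 of 10 alternatives kept it. The adjusted p was 0.0333 with DESeq2 on the batch-corrected values, and between 0.00111 and 0.0119 with the other scalings and filters. It was 0.406 with DESeq2 on the raw counts, 0.164 with all 8 samples in a single edgeR fit and 1.00 without the replicate block, and it was 1.00 without replicate 1 and 0.476 without replicate 2, while the estimate stayed between 0.25 and 0.40 under all 10. In pMb, Septin6 stood at 17.6 and 18.9 CPM in controls and at 17.5 and 20.1 CPM after Septin9 siRNA, a log2 fold change of 0.05 (-0.22 to 0.32).

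The other SEPT6 group members did not pass in either cell type. Septin11 was lower after Septin9 siRNA in all 4 pairs, from 364 to 320 CPM and from 391 to 376 CPM in C2C12 and from 508 to 478 CPM and from 509 to 477 CPM in pMb. Its log2 fold changes were -0.12 (-0.27 to 0.02, adjusted p = 0.382) and -0.08 (-0.35 to 0.19, adjusted p = 0.826). Septin8 went from 165 to 154 CPM and from 153 to 143 CPM in C2C12, and from 34.6 to 32.4 CPM and from 47.5 to 53.4 CPM in pMb, with log2 fold changes of -0.10 (adjusted p = 0.451) and 0.05 (adjusted p = 0.891). Septin10 had log2 fold changes of -0.05 and 0.07 (adjusted p = 0.803 and 0.809).

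In the SEPT2 group, Septin2 and Septin5 stayed within 0.07 of 0 on the log2 scale. Septin2, the most abundant member, went from 408 to 445 CPM and from 482 to 450 CPM in C2C12, so the pairs pointed in opposite directions, and from 396 to 424 CPM and from 398 to 400 CPM in pMb. The 95% interval of its change was 0.906-fold to 1.12-fold in C2C12 and 0.872-fold to 1.25-fold in pMb. Septin5 had log2 fold changes of -0.03 in C2C12 and -0.05 in pMb (adjusted p = 0.895 and 0.887). Septin7, the sole member of its group and part of every canonical rod, went from 299 to 303 CPM and from 315 to 300 CPM in C2C12 and from 315 to 346 CPM and from 371 to 342 CPM in pMb. Its intervals ran from 0.890-fold to 1.08-fold and from 0.848-fold to 1.21-fold. Leaving out Septin4, Septin6 and Septin9, the upper limits of all intervals stayed at or below 1.12-fold in C2C12 and 1.25-fold in pMb, and the lower limits at or above 0.830-fold and 0.786-fold. Changes beyond these limits lay outside the intervals, and smaller ones were not resolved.

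Septin4 had the largest estimate among the paralogs and the least certain. In pMb its counts were 38 in the control and 52 after Septin9 siRNA in replicate 1, and 14 and 38 in replicate 2. In CPM these were 1.60 and 2.28, and 0.528 and 1.82. Both siRNA samples lay above both controls. The log2 fold change was 1.03 ± 0.36 (SE), a 2.04-fold level (1.21 to 3.45), with an unadjusted p of 0.0107 and an adjusted p of 0.122, so it was not called. Without a filter on low counts, which changes the set of genes adjusted over, its adjusted p was 0.0348, and over the other alternatives it ran from 0.0664 to 1.00. At its highest Septin4 reached 0.640 RPKM, in a sample where Septin2 had 53.2 RPKM. In C2C12, with 0 and 1 counts in controls and 3 and 2 counts after Septin9 siRNA, it was too low to test.

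Most genes of differentiated muscle moved with Septin4 in pMb. Myog, the myogenic factor of early differentiation, was at 998 and 407 CPM in the pMb controls of replicates 1 and 2 and at 1517 and 911 CPM after Septin9 siRNA. Septin4 and Myog thus shared their lowest sample, the control of replicate 2, and their highest, the Septin9 siRNA sample of replicate 1, and the part of differentiation in the Septin4 difference was not tested. Of the 10 genes of differentiated muscle, 8 rose in pMb, with log2 fold changes between 0.81 (Tnni1) and 1.39 (Myh8), beside Ckm at 1.14, Myh3 at 1.08, Myl4 at 1.02, Mymk at 0.90, Myog at 0.89 and Mymx at 0.81, while Ttn (0.47) and Acta1 (-0.06) did not pass. In C2C12, 6 of 9 tested rose, namely Mymx (1.13), Tnni1 (1.12), Myog (1.03), Mymk (1.02), Myh3 (0.74) and Ttn (0.46). In C2C12, Myl4 (0.16), Ckm (0.54) and Acta1 (-0.40) did not pass. Between the C2C12 replicates, 8 of the 9 were called higher in replicate 2 by edgeR, beside 35.7% of all genes called in either direction. The median log2 difference of the 9 was 1.57. Myog was at 5.23 and 16.0 CPM in the C2C12 control and Septin9 siRNA samples of replicate 1. In replicate 2 it was at 37.7 and 64.1 CPM. In the replicate 1 pair of pMb, Ttn went from 646 to 546 CPM and Acta1 from 3276 to 2482 CPM, while Septin4 rose. In the replicate 2 pair, Ttn went from 180 to 403 CPM and Acta1 from 906 to 1079 CPM. The medians of the list were 0.90 in pMb and 0.74 in C2C12. DESeq2 called 6 and 2 of them. Of the 5 myogenic genes, Des (0.57) rose in pMb while Myf5 (-0.78) and Pax7 (-0.44), which mark less differentiated cells, fell, and in C2C12 Myod1 (0.54), Des (0.49) and Cdh15 (0.38) rose. DESeq2 called 2 and 3 of these 5.

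Whether the septins responded differently in the 2 cell types was tested as the interaction of siRNA and cell type. None of the 9 was called by edgeR, 0 passed an unadjusted p of 0.05, and DESeq2 called 0, beside 0.0% of all 17918 genes by edgeR, of which 1469 had an unadjusted p under 0.05, and 21 by DESeq2. Septin6, called in C2C12 and not in pMb, had a log2 difference in response (pMb minus C2C12) of -0.27 (-0.57 to 0.02, adjusted p = 0.645). Septin9 had 0.14 (-0.33 to 0.61, adjusted p = 0.913), and without replicate 2 of pMb, where it fell most, the difference was 0.51 with an adjusted p of 0.0237. The remaining differences, Septin4 aside, lay between -0.03 and 0.14, and Septin4 could not be placed, with an interval from -4.24 to 1.98.

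Between the replicates of a cell type, which stand for independent experiments, few septins passed the test. In C2C12, 0 of the 8 tested were called by edgeR between replicates 2 and 1, beside 35.7% of all genes, and DESeq2 called 0. At an unadjusted p under 0.05 in edgeR, 2 of the 8 passed, beside 7033 of all 15814 genes. The smallest adjusted p was 0.0741, for Septin9 (log2 difference 0.18). In pMb, 1 of 9 was called, beside 24.5% of all genes. This was Septin8, at 34.6 and 32.4 CPM in replicate 1 and at 47.5 and 53.4 CPM in replicate 2, a log2 difference of 0.57 ± 0.12 (SE, adjusted p = 0.00129), with both samples of replicate 2 above both of replicate 1.

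Fibroblast genes moved with that difference in pMb. Of the 5 on the list, 4 were tested and 4 of 4 were higher in replicate 2 of pMb, with log2 differences of 5.06 for Pdgfra, 5.69 for Dcn, 3.96 for Thy1 and 0.77 for Col3a1. The summed level of the list was 338 and 310 CPM in replicate 1 and 602 and 634 CPM in replicate 2. After Septin9 siRNA in pMb, 1 of the 4 tested rose, Thy1 by a log2 fold change of 0.80 (adjusted p = 0.0431), and DESeq2 called 0. Lum stayed at or below 0.49 CPM in all samples. In C2C12, where Septin8 was highest, the list summed to between 2285 and 2967 CPM, nearly all of it Col3a1. Between the controls (pMb minus C2C12), Col3a1 had a log2 difference of -2.55 (adjusted p = 0.00713 by edgeR). Pdgfra (0.43), Dcn (2.07) and Thy1 (9.82) pointed the other way and were not called. Between the C2C12 replicates, Dcn (2.24) and Pdgfra (0.55) were higher in replicate 2 and called by edgeR. Col3a1 (0.23) was not called, and Septin8 was at -0.14 there, not called either. The part of fibroblast RNA in the Septin8 difference was not tested. Septin4 was lower in replicate 2 of pMb by a log2 difference of -0.85 (adjusted p = 0.0991), as all 10 genes of differentiated muscle were, with a median of -1.26.

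**Figure D4:**
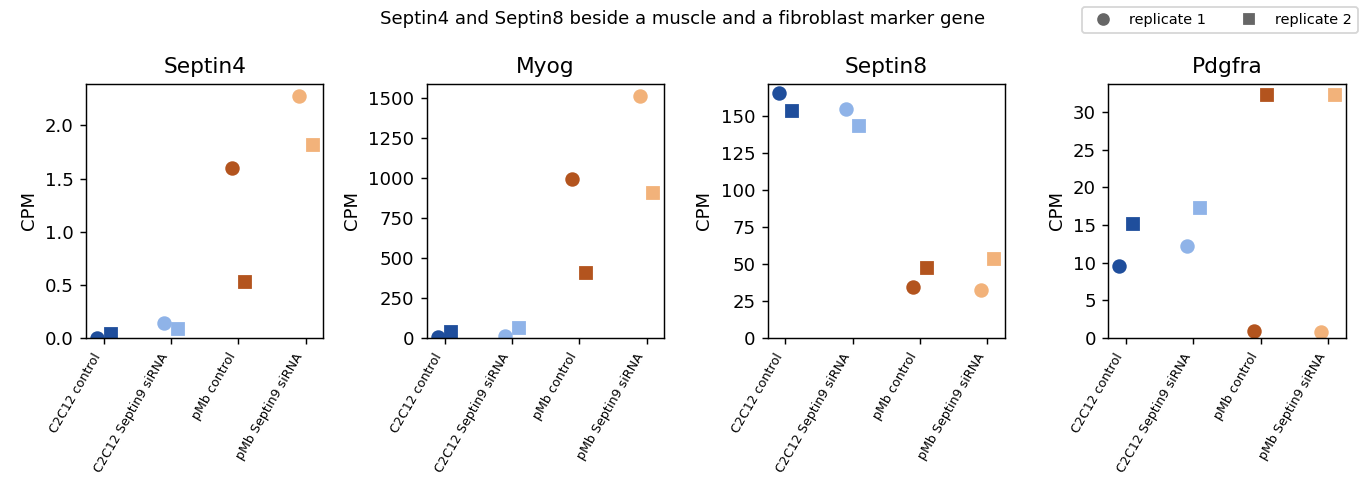
CPM (vertical axes, each from 0) of Septin4, Myog, Septin8 and Pdgfra in the 4 groups, with circles for replicate 1 and squares for replicate 2. Septin4 and Myog have their lowest pMb value in the control of replicate 2 and their highest in the siRNA sample of replicate 1, and within pMb Septin8 and Pdgfra are higher in both samples of replicate 2.

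Proteins that work with septins were looked at as a list of 15 genes, among them Cdc42, its septin-binding effectors Cdc42ep1 to Cdc42ep5 and the contractile ring proteins anillin (Anln) and citron kinase (Cit). In C2C12, 0 of 15 rose and 3 fell by edgeR, beside 6.75% of all 15814 genes called, and DESeq2 called 0. The 3 were Myo6, lower by 0.42, Cit by 0.37 and Anln by 0.27 on the log2 scale (adjusted p = 0.00903, 0.00569 and 0.0216 by edgeR). At an unadjusted p under 0.05 in edgeR, 7 of the 15 passed in C2C12, beside 2962 of all genes. In pMb, 0 of 15 were called by edgeR and by DESeq2, with 5 at an unadjusted p under 0.05 in edgeR, beside 2864 of all 17117 genes. The largest estimates in pMb were Cit at -0.46, Myh9 at -0.41 and Myo6 at -0.33. The medians of the list were -0.05 and -0.09. None of the 5 Cdc42 effectors passed in either cell type. Genes of dividing cells fell beside them. In C2C12, 6 of 7 fell, Mki67 (-0.50), Ccnb1 (-0.41), Aurkb (-0.41), Ccna2 (-0.34), Top2a (-0.32) and Cdk1 (-0.23), with a median of -0.34. In pMb, 2 of 7 fell, Aurkb (-0.46) and Ccnb1 (-0.43), with a median of -0.37. DESeq2 called 4 and 0 of them. Between the C2C12 replicates, all 7 were called lower in replicate 2 by edgeR, with a median of -1.05, beside 35.7% of all genes called. Anln (-0.96) and Cit (-0.87) were called lower there too, while Myo6 (0.20) was not called. Anln and Cit act in cell division themselves, and the part of fewer dividing cells in their difference after Septin9 siRNA was not tested.

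Patterns across the 8 samples were compared over 10075 genes with a mean of at least 10 CPM. The measure was Pearson's r of log2 CPM, with 0.1 added to each CPM. The genes most like Septin9 were Alg2 (0.989), Gm26533 (0.980) and Ammecr1l (0.977). For Septin6 they were Ift46 (0.994), 4930430F08Rik (0.994) and Mark2 (0.993), and for Septin4 they were Des (0.993), Spns1 (0.993) and Spryd4 (0.991). The 8 points share 2 cell types and 2 replicate pairs in each, and the levels of Septin4 and Septin6 do not overlap between C2C12 and pMb. Those of Septin9 do not overlap between control and Septin9 siRNA samples. Septin4 had between 0 and 0.140 CPM in C2C12, so its values there rest largely on the 0.1 that was added.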

How the data were processed

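RNA-seq of 8 samples was used. According to the submitters' processing notes, STAR 2.7.2 aligned the read pairs to the mouse genome (GRCm38.p6) and featureCounts 2.0.1 gave the deposited raw counts per gene. They also deposited, for each cell type, values that they had corrected for batch with ComBat-Seq and divided by DESeq2 size factors, a signal from which whole counts were recovered (100% of values within 0.05 of a whole count) and which served in an alternative only. Reads had been counted in overlapping genes and copies alike. The table's symbols follow RefSeq, and 16 broken lines, from 5 genes, were left out.

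Here counts were tested with edgeR 4.0.16 in R 4.3.3 (TMM scaling, filterByExpr, quasi-likelihood test, Benjamini-Hochberg adjustment over all genes tested, two-sided), with the replicate number as a block within each cell type and no block between the controls. The replicate numbers stand for 2 independent experiments, and the deviations of same-numbered samples from their group means correlated at 0.780 in C2C12 and 0.837 in pMb. With 2 pairs, p-values rest on that small spread. Levels are CPM over all 8 samples, divided by GENCODE M21 summed exon length for RPKM. Septin3, Septin12 and Septin14 were given as counts. Genes of the septin partner and dividing cell lists were given where called or among the 3 of largest change. Those of differentiated muscle were given where tested after Septin9 siRNA. For Septin4, Septin6 and Septin9 the 3 most alike genes were given. The members, lists and tests were chosen with earlier results of these data known. Alternatives were other scalings and filters, DESeq2 1.42.0, fits without the block or over all samples, other gene lengths and leaving out each pair. On simulated data with 200 genes changed by 1.5 on the log2 scale, the C2C12 fit over 15814 genes recovered 93.5% and the pMb fit over 17117 genes 87.0%. The fit of the controls recovered 57.0% and the fit for a different response 73.5%. Of the genes called in these fits, 3.61%, 5.95%, 5.79% and 6.37% had not been changed, in the same order. Smaller changes, such as those estimated for most paralogs after Septin9 siRNA, were not simulated.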

Additional observations from a re-analysis of the deposited data

How the results depend on the processing

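With the replicate block as the reported fit, leaving it out kept the log2 fold change of Septin9 at -1.35 in C2C12 and -1.21 in pMb but ended the calls, and 0 other septins were called. In the fit of the controls, the count of called septins was 5 with and without the block. Apart from the fits without the block, Septin9 was called after Septin9 siRNA under every alternative run, and leaving out single pairs moved its log2 fold change between -1.48 and -1.23 in C2C12 and between -1.57 and -0.86 in pMb. The count of other septins called in C2C12 (1 as reported) was 1 with DESeq2 on the batch-corrected values and with the other scalings and filters, but 0 with DESeq2 on the raw counts, 0 without the block, 0 with all 8 samples in 1 fit, 0 with the 1.5-fold threshold and 0 without either pair. In pMb (0 as reported) it was 1 without the filter, which was Septin4. Between C2C12 replicates, 1 septin (Septin9) was called with library size alone. Between the controls the count (5 as reported) ran from 0 to 5 when single samples were left out, with 2 without replicate 1 of the C2C12 control, 0 without its replicate 2 and 3 without replicate 1 of the pMb control. For a different response, 0 to 1 septins were called when single pairs were left out. Where a pair was left out, the lone pair was assumed to vary like the other cell type. The causes were not tested.

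The share of Septin9 in septin RNA moved with the length used. With the longest transcript it was 19.4% in C2C12 controls, 21.1% in pMb controls and 10.3% in pMb after Septin9 siRNA. With the coding length these were 16.6%, 17.6% and 8.43%, and 7.36% in C2C12 after Septin9 siRNA. Counts with no length gave 22.0% in C2C12 controls. The summed ratio of the other 8 septins moved by less than its SD under all alternatives run.

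Some small differences that were not called as reported changed sign. With single pairs left out, the log2 fold change after Septin9 siRNA in C2C12 ran from -0.10 to 0.13 for Septin2, from -0.045 to 0.0056 for Septin5, from -0.12 to 0.040 for Septin10 and from -0.072 to 0.027 for Septin7. In pMb it ran from -0.011 to 0.11 for Septin6, from -0.10 to 0.19 for Septin8 and from -0.094 to 0.13 for Septin7. Without the filter Septin2 in C2C12 was at -0.0078, and with library size alone Septin7 in pMb was at -0.011. The Septin9 difference between the controls was -0.052 with library size alone, -0.018 without the filter, and between -0.17 and 0.15 with single controls left out. Its difference in response ran from -0.20 to 0.51 with single pairs left out, and the latter, without replicate 2 of pMb, was called.

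Over all genes, edgeR called 1068 after Septin9 siRNA in C2C12 and 854 in pMb, DESeq2 276 and 256 on the raw counts but 820 and 936 on the batch-corrected values, fits without the block 0 and 0, 1 fit of all 8 samples 111 and 716, and leaving out single pairs gave 98 to 181 and 1277 to 2020. In pMb, size factors by relative log expression (RLE) gave 295 and library size alone 236. With 2 samples a group, moderate changes of Septin4, at 14 to 52 counts in pMb, were not resolved. Between the controls, 5901 genes were called, and 512 to 4760 with single samples left out. For a different response 0 were called, but 21 with DESeq2, 255 without the filter and 51 to 844 with single pairs left out. Between replicates DESeq2 called 2570 genes in C2C12 and 2005 in pMb against 5638 and 4187 by edgeR.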
